A study of Mus musculus with 8 samples.

Results

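Small leucine-rich proteoglycans are secreted proteins of the extracellular matrix, built from leucine-rich repeats and in many cases carrying glycosaminoglycan chains. They were examined here as 9 genes of the RNA-seq table, found by their symbols among the 35976 symbols listed: Bgn, Dcn, Lum, Fmod, Ogn, Prelp, Omd, Aspn and Podn. All 9 had enough reads to be tested and so stand among 9943 tested genes.

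The cells were preadipocytes (CD45-, CD31-, TER119-, PDGFRa+) isolated by sorting the stromal vascular fraction (SVF) of male inguinal white fat (iWAT), from mice fed a high fat diet for 6 weeks. The 3 control libraries carry the genotype Tet3 f/f and are called WT here, and the 3 others carry the genotype Pdgfra-Tet3 KO and are called KO. All 6 libraries share the sex, the diet and the sort, and by its name the genotype targets Tet3, an enzyme that oxidises 5-methylcytosine, in cells that express Pdgfra. The labels give neither the Cre line nor the age of the mice, and separate animals are not stated, so p-values measure only how these libraries spread, which could be technical.

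Proteins of this family bind collagen fibrils and set their width and spacing, and several of them also bind growth factors or receptors at the cell surface. Decorin (Dcn), biglycan (Bgn) and asporin (Aspn) form one class, of which decorin and biglycan carry chondroitin or dermatan sulfate chains. Lumican (Lum), fibromodulin (Fmod), prolargin (Prelp) and osteomodulin (Omd) form a class in which keratan sulfate chains are common. Osteoglycin (Ogn) and podocan (Podn) belong to smaller classes. In fat, stromal cells are a main source of these proteins.

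Several members lie next to each other in the genome, which the choice of genes did not use. In the RefSeq annotation of GRCm38.p6, Dcn and Lum are neighbours on chromosome 10 with 0 genes starting between them. Aspn, Omd and Ogn follow each other on chromosome 13, next to the related gene Ecm2. All of them, Ecm2 included, overlap the span of Cenpp, a gene with 0 to 6 counts per library. Whether their exons overlap those of Cenpp was not checked. Reads of shared exon bases could not be told apart if strand was not used. Prelp and Fmod lie near each other on chromosome 1, with 0 protein-coding genes between them. Bgn is on chromosome X and Podn on chromosome 4.

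The bases upstream of the start sites differ widely between members. The 250 bases before the start are shown for 3 members whose KO levels lay below WT (Bgn, Podn, Fmod) and 1 whose levels did not (Ogn), from RefSeq with the build GRCm38.p6, each on the strand of its gene and with every CG dinucleotide, the site that DNA methylation uses, in capitals.
Bgn, chrX:73483351-73483600, plus strand: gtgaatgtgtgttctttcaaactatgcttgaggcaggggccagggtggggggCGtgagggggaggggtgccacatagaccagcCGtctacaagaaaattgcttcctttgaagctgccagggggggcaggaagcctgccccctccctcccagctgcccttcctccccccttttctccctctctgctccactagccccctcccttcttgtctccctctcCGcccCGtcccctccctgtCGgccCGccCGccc
Podn, chr4:108031955-108032204, minus strand: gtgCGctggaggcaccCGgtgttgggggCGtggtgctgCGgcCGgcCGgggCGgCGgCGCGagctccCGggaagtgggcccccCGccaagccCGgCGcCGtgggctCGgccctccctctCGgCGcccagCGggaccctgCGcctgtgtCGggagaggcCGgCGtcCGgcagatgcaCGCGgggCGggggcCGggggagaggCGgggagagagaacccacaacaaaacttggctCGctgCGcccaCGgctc
Fmod, chr1:134037004-134037253, plus strand: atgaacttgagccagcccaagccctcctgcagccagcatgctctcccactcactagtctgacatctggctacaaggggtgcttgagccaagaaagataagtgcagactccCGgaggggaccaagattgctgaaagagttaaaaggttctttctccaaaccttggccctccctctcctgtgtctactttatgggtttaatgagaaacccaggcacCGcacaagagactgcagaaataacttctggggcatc
Ogn, chr13:49607765-49608014, plus strand: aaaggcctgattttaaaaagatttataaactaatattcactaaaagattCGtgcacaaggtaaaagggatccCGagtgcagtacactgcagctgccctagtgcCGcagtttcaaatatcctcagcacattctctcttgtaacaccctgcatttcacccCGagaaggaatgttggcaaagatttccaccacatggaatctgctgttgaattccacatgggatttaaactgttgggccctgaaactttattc

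These upstream stretches held 7 CG dinucleotides for Bgn, 32 for Podn, 2 for Fmod and 4 for Ogn, where the median over 32851 promoters of the same length was 6. The Podn stretch had more than 95.4% of all promoters, while a second RefSeq start of Podn had 7. Among the others, Prelp had 5, Aspn had 2 and Omd had 1. The motif GGGCGG, searched on both strands, was found in the stretches of Bgn and Podn and in 32.7% of all promoters, and it contains a CG itself. The motif TATAAA, searched the same way, was found in the stretches of Ogn and Aspn and in 12.4% of promoters, and TGANTCA in none of the 7 members with an entry and in 6.75% of promoters. Dcn and Lum had no entry. A match describes these letters alone.

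The libraries held between 1831218 and 2374978 counts. The members together took 2.30% ± 0.0298 of all counts in WT and 2.14% ± 0.108 in KO (SD, n = 3 each). Tet3 itself had 93, 127 and 104 counts in WT libraries 1 to 3 and 76, 87 and 79 in KO, and its groups overlapped on the CPM scale (counts scaled to the effective size of each library). KO over WT, this gave a log2 fold change of -0.24 ± 0.24 (SE; edgeR adjusted p = 0.71), and reads of deleted and retained exons are not separated in these counts. Of the markers of the sort, Pdgfra was present in every library and fell from a mean of 648 ± 25.8 CPM in WT to 451 ± 38.6 in KO (SD, n = 3; edgeR adjusted p = 0.00598). Ptprc, which encodes CD45, was at 0 in all 6 libraries.

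The question put to the family was which of its genes differ between the genotypes. In KO, 3 of the 9 were lower, namely Bgn, Podn and Lum, and 0 were higher, by edgeR's quasi-likelihood test with Benjamini-Hochberg adjustment over all tested genes at 0.05. The KO level was 0.526 of the WT level for Bgn, 0.563 for Podn and 0.757 for Lum. Of all tested genes, 1.77% were called lower and 1.82% higher. The members were chosen with earlier results of these data known, so their counts are not those of a list chosen blind. Before adjustment, 4 members had a p under 0.05 with lower values and 0 with higher ones, where 7.83% of all tested genes did with lower and 7.62% with higher values. DESeq2 also called 3 lower and 0 higher, where it called 4.82% of its genes in either direction. By limma-voom, which called 3.37%, 4 were lower and 0 higher, with Fmod as the added gene. The groups were separate in 4 members, all lower in KO, and 0 higher, where 10.3% of all tested genes were separate with lower and 10.1% with higher KO values, 20.4% in all. The median log2 fold change over the 9 genes was -0.088, beside -0.0024 over all tested genes. In bulk RNA of sorted cells, fewer cells that express a gene and less RNA per cell cannot be told apart.

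**Figure D1:**
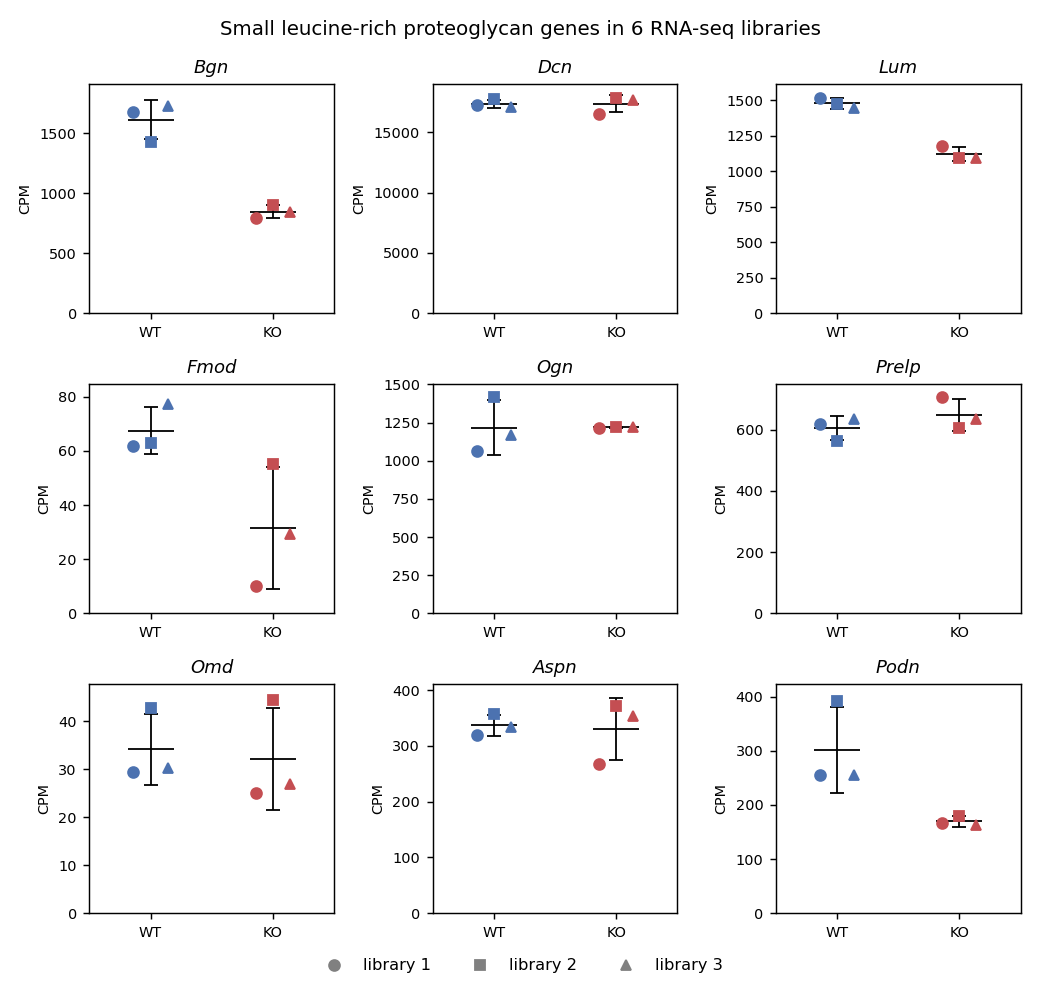
Level of each of the 9 genes in CPM (vertical axes, each from 0) in the 3 WT libraries (blue) and 3 KO libraries (red), with the marker shape giving the library number and the bars the mean and SD. The KO points of Bgn, Lum, Podn and Fmod lie below every WT point, and those of Dcn, Ogn, Prelp, Omd and Aspn overlap the WT points.

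Bgn encodes biglycan, which binds collagen and, when released from the matrix, can act on Toll-like receptors. It stood at 1679, 1429.6 and 1733 CPM in WT libraries 1 to 3 and at 798, 902 and 846 CPM in KO libraries 1 to 3. Every KO library was below every WT library, and the SD in KO was 6.15% of the mean. This amounts to a log2 fold change of -0.93 ± 0.11 (SE), with a 95% interval from -1.15 to -0.71 and an edgeR adjusted p of 1.17e-06. It passed whichever library was left out, with values between -1.01 and -0.88.

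Podn encodes podocan, which restrains the growth of vascular smooth muscle in mice. Its WT libraries stood at 255, 392 and 256 CPM and its KO libraries at 166, 180.5 and 162 CPM. The KO libraries were close together and below all WT libraries, and WT library 2 stood well above the other WT libraries. Podn thus had a log2 fold change of -0.83 ± 0.16 (SE; 95% interval -1.15 to -0.51; edgeR adjusted p = 0.00104). Without WT library 2 it was -0.59 and still passed (adjusted p = 0.0295).

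Lum encodes lumican, known for ordering the collagen fibrils of the cornea. It stood at 1518, 1473 and 1444 CPM in WT and at 1176, 1091 and 1091 CPM in KO. The groups were narrow and did not overlap. For Lum the log2 fold change was -0.40 ± 0.10 (SE; 95% interval -0.61 to -0.20), with an edgeR adjusted p of 0.0177. Its size held between -0.44 and -0.38 with any library left out, but Lum no longer passed when WT library 1, 2 or 3 was left out (edgeR adjusted p = 0.0984, 0.0530 and 0.0538), or KO library 3 (0.119).

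Fmod encodes fibromodulin, a collagen-binding protein that is abundant in tendon. Its counts were low, at 130, 149 and 156 in WT libraries 1 to 3 and 20, 108 and 53 in KO, or 61.8, 63.1 and 77.4 CPM against 10.3, 55.2 and 29.2 CPM. All KO values were below all WT values, yet the KO libraries differed more than 5-fold among themselves and KO library 2 came close to WT library 1. Fmod had a log2 fold change of -1.09 ± 0.33 (SE; 95% interval -1.76 to -0.42), and the edgeR adjusted p of 0.0576 missed the threshold. Without KO library 1 the value was -0.67 (adjusted p = 0.235), and without KO library 2 it was -1.79 (adjusted p = 0.00107), so its size rests on single KO libraries.

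Dcn encodes decorin, which limits the lateral growth of collagen fibrils and binds TGF-beta. It took 1.73% of all counts in WT and 1.71% in KO, the fourth highest mean count of the tested genes. Its levels were 17234, 17712 and 17117 CPM in WT libraries and 16529.8, 17835 and 17641 CPM in KO libraries. The groups overlapped, with KO library 1 lowest and KO library 2 highest. Decorin's gene had a log2 fold change of -0.0016 ± 0.073 (SE), and the 95% interval from -0.15 to 0.15 excludes a fall of the size measured for Bgn or Podn.

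Ogn encodes osteoglycin, a protein of bone and connective tissue matrix. It stood at 1061, 1415 and 1172 CPM in WT and at 1217, 1218 and 1219 CPM in KO. The 3 KO values fell inside the range of WT, with an SD of 0.0548% of the mean in KO and 14.9% in WT. The SD in KO was below the counting error of its 2372, 2383 and 2215 counts. It therefore does not show that Ogn varied less in KO. Between genotypes the log2 fold change was 0.0023 ± 0.11 (SE; 95% interval -0.22 to 0.23; edgeR adjusted p = 0.996).

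Prelp encodes prolargin, which links basement membranes to the collagen of connective tissue. Its levels were 618, 563 and 635 CPM in WT and 708, 605 and 634 CPM in KO. The groups overlapped, with KO library 1 highest. The log2 fold change of 0.10 ± 0.11 (SE; 95% interval -0.13 to 0.33; edgeR adjusted p = 0.755) was the highest of the 9.

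Aspn encodes asporin, a relative of decorin that binds TGF-beta and inhibits cartilage formation. It stood at 320.0, 357 and 334 CPM in WT and at 267, 371 and 353 CPM in KO. KO library 1 was lowest and KO library 2 highest of the 6, so the groups overlapped. For Aspn the log2 fold change was -0.028 ± 0.13 (SE; 95% interval -0.30 to 0.25; edgeR adjusted p = 0.957).

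Omd encodes osteomodulin, a keratan sulfate proteoglycan of bone. WT libraries 1 to 3 gave 62, 101 and 61 counts of Omd and KO libraries 49, 87 and 49, the fewest of the 9 genes alongside Fmod. Library 2 was highest in each genotype. Omd had a log2 fold change of -0.088 ± 0.30 (SE), and the wide 95% interval from -0.69 to 0.52 would hold a fall as large as that of Lum.

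**Figure D2:**
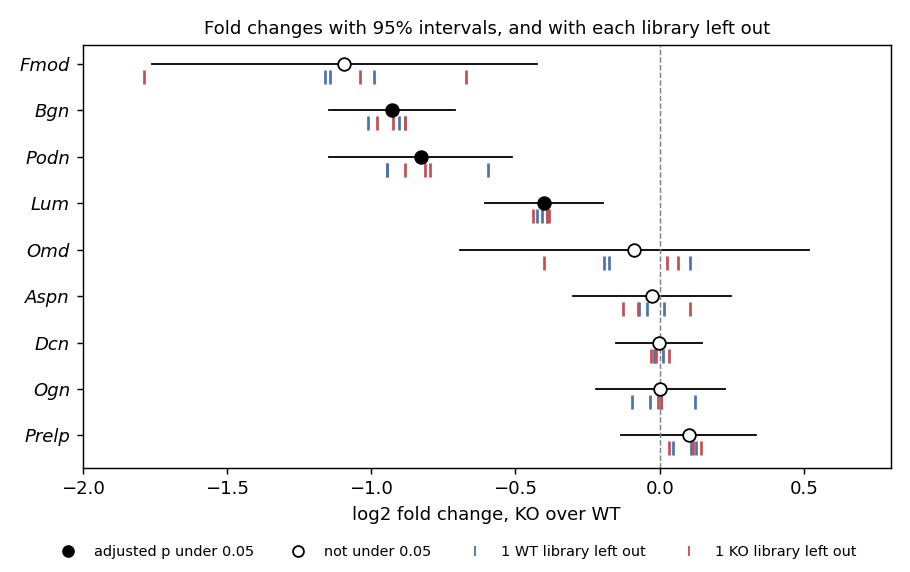
Log2 fold change of KO over WT for each gene (circles; filled where the adjusted p was under 0.05) with its 95% interval, and below it the values with 1 library left out (ticks, blue for WT and red for KO). The intervals of Bgn, Podn, Lum and Fmod lie below 0, and those of the other 5 genes cross 0. The ticks of Bgn and Lum lie close to their circles, those of Podn run from -0.94 to -0.59 and those of Fmod from -1.79 to -0.67.

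Without Dcn, the other 8 genes summed to 5543, 5736 and 5681 CPM in WT libraries 1 to 3 and to 4368, 4468 and 4362 CPM in KO. All KO sums lay below all WT sums, and no test was made on a sum over chosen genes. Within the reads of the family, Dcn took 75.4% ± 0.306 in WT and 79.7% ± 0.572 in KO (SD, n = 3). The part of Bgn went from 7.02% ± 0.810 to 3.90% ± 0.124, and that of Lum from 6.43% ± 0.207 to 5.16% ± 0.407. These are shares of reads, which depend on transcript length, so they do not rank the genes against each other by molecules.

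The ratio of 2 members within a library does not depend on how the library is scaled. It was compared between genotypes for 8 pairs, chosen as genomic neighbours or as relatives, with an exact two-sided permutation test whose smallest possible p with 3 against 3 libraries is 0.1. Bgn against Dcn, both of the same class, had log2 ratios of -3.36, -3.63 and -3.30 in WT and -4.37, -4.30 and -4.38 in KO. The groups were separate, with a difference of -0.92 (exact p = 0.1, the smallest possible; 0.2 after adjustment over the 8 pairs). Bgn against Aspn differed by -0.88, also with separate groups (exact p = 0.1; adjusted 0.2).

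The other pairs were neighbours on a chromosome or members of 1 class, and none had an adjusted p under 0.2. For Dcn against Lum, adjacent on chromosome 10, the log2 ratio was 3.51, 3.59 and 3.57 in WT and 3.81, 4.03 and 4.01 in KO, a difference of 0.40 with separate groups (exact p = 0.1; adjusted 0.2). For Fmod against Prelp on chromosome 1 it was -3.32, -3.15 and -3.03 in WT and -6.07, -3.45 and -4.43 in KO, a difference of -1.48 (exact p = 0.1; adjusted 0.2) that was -0.77 without KO library 1. The 3 pairs of the chromosome 13 cluster overlapped between genotypes, with differences of 0.12 for Ogn against Omd (exact p = 0.7), 0.053 for Ogn against Aspn (exact p = 0.9) and -0.071 for Omd against Aspn (exact p = 1). Fmod against Lum overlapped too (difference -0.98; exact p = 0.3), and was -0.30 without KO library 1.

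**Figure D3:**
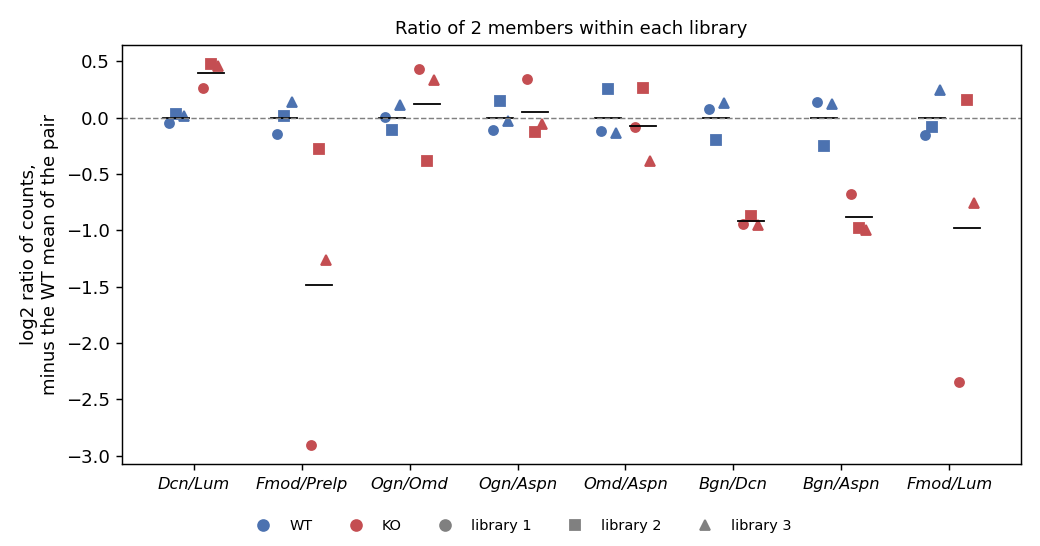
Log2 ratio of the counts of 2 members in each library, minus the mean of the WT libraries for that pair (vertical axis), in WT (blue) and KO (red); marker shapes give the library number and black lines the group means. The KO points of Bgn/Dcn and Bgn/Aspn lie below all WT points, those of Dcn/Lum lie above, the 3 pairs of Ogn, Omd and Aspn overlap, and KO library 1 is far below the rest in both pairs with Fmod.

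The gene whose values followed those of Bgn most closely over the 6 libraries was Tril, which encodes a co-receptor of Toll-like receptors. Likeness was the root mean square distance between centred log2 CPM, taken over the 4973 genes whose average log2 CPM was 5 or more. Tril lay at a distance of 0.056, followed by Gpm6b at 0.071, Cpxm2 at 0.072, Col4a1, a chain of basement membrane collagen, at 0.081 and Uqcrc2, a subunit of respiratory complex III, at 0.10. Tril had a mean of 107 ± 6.43 CPM in WT and of 53.5 ± 3.84 in KO (SD, n = 3), and Col4a1 means of 2213 ± 103 and 1255 ± 134 CPM. Because the distance took in both genotypes, genes close to Bgn share its fall in KO by the way they were chosen. Their means are therefore not a separate result. For Dcn the closest genes were Vwa5a, Serp1, Pmp22, Atrnl1 and Slc25a4, at distances from 0.020 to 0.041. Among the members, Dcn and Ogn were closest to each other (0.11), while Bgn was closest to Lum (0.29). Genes that change little lie close together by this distance, so closeness to Dcn does not show that genes vary together.

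Of the other 9 genes of the family, 2 had enough reads to be tested. Ecm2, the neighbour of Aspn on chromosome 13, was at a mean of 154 ± 8.95 CPM in WT and fell to 99.0 ± 2.42 (SD, n = 3), with a log2 fold change of -0.63 ± 0.16 (SE; edgeR adjusted p = 0.0192). Its counts, 309, 355 and 330 against 190, 191 and 185, did not overlap. Leaving out WT library 1, WT library 3 or KO library 3 ended the call for Ecm2 (edgeR adjusted p of at most 0.0934). Tsku, which encodes tsukushi, a secreted inhibitor of several signalling pathways, had 6 to 22 counts per library and did not pass (log2 fold change -0.15 ± 0.68; adjusted p = 0.951). Kera, Epyc, Optc, Chad, Chadl, Nyx and Podnl1 had between 0 and 17 counts in each library. Low counts do not by themselves show absence, since Gapdh, abundant in most cells, had 0 or 1 count in each library.

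The enzymes that build chondroitin and dermatan sulfate chains, which decorin and biglycan carry, showed 1 gene higher and 0 lower among 24 tested of 28. The shares called over all tested genes were 1.82% higher and 1.77% lower. The gene called here was Ugdh, which makes the UDP-glucuronic acid used in these chains. Its mean rose from 643 ± 4.54 CPM in WT to 1115 ± 102 in KO (SD, n = 3), with a log2 fold change of 0.79 ± 0.11 (SE; edgeR adjusted p = 1.45e-05). Dse, which epimerises glucuronic to iduronic acid in dermatan sulfate, had a mean of 76.2 ± 6.80 CPM in WT and of 49.0 ± 9.43 in KO, and did not pass (edgeR adjusted p = 0.111). Csgalnact1 (adjusted p = 0.233) and the sulfotransferase gene Chst15 (adjusted p = 0.313) did not pass either. Before adjustment 1 gene was higher and 3 were lower at p under 0.05, beside 7.62% higher and 7.83% lower over all tested genes. DESeq2 and limma-voom each called 1 higher and 0 lower, and the median log2 fold change was -0.029.

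Among keratan sulfate enzymes, 1 of 5 tested of 8 rose and 0 fell, where 1.82% of all tested genes were called higher and 1.77% lower. Chst1, which sulfates galactose in keratan sulfate, went from 294, 246 and 161 counts in the WT libraries to 492, 424 and 456 in the KO libraries. Chst1 had a log2 fold change of 1.15 ± 0.17 (SE; edgeR adjusted p = 4.36e-05), and it passed with any library left out. B4galt1, B4galt4 and Chst2 did not pass (adjusted p = 0.474, 0.654 and 0.81). At p under 0.05 before adjustment the counts were again 1 higher and 0 lower, beside 7.62% higher and 7.83% lower over all tested genes. DESeq2 and limma-voom each called 1 higher and 0 lower as well.

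The collagens that these proteoglycans bind, or that assemble beside them, had 4 of 11 tested members lower and 1 higher, with a median of -0.30. The shares over all tested genes were 1.77% lower and 1.82% higher, with a median of -0.0024. Before adjustment 7 collagens were lower and 1 was higher at p under 0.05, beside 7.83% lower and 7.62% higher over all tested genes. DESeq2 called 4 lower and 0 higher, and limma-voom 5 lower and 1 higher. Col6a3 fell by 0.59 ± 0.099, Col6a1 by 0.62 ± 0.11 and Col5a3 by 0.59 ± 0.11 on the log2 scale (SE; edgeR adjusted p = 0.000239, 0.00032 and 0.000548). Col1a2 and Col3a1 did not pass, at 0.089 ± 0.090 and -0.24 ± 0.082 (SE, edgeR adjusted p = 0.711 and 0.101). Col1a1, a chain of the main fibrillar collagen, had the opposite sign to Col6a3, Col6a1 and Col5a3, at 0.44 ± 0.10 (SE, edgeR adjusted p = 0.00789). Its call was lost with DESeq2 (adjusted p = 0.25) and without WT library 1 or 2 (adjusted p up to 0.0710), its KO mean was set by KO library 1 with 61864 counts beside 39288 and 42343, and without that library the value was 0.24.

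Among ligands and receptors tied to the family, 3 of 17 tested were higher and 3 lower, with a median of -0.20. The shares over all tested genes were 1.82% higher and 1.77% lower, with a median of -0.0024. Before adjustment 4 of this list were higher and 5 lower at p under 0.05, beside 7.62% higher and 7.83% lower over all tested genes. DESeq2 called 2 higher and 2 lower, and limma-voom 2 higher and 1 lower. Egfr, a receptor that decorin can bind and inhibit, rose from a mean of 404 ± 13.9 CPM in WT to 681 ± 18.1 in KO (SD, n = 3), or by 0.75 ± 0.11 on the log2 scale (SE; edgeR adjusted p = 7.14e-05). Cd44, a receptor for hyaluronan that can act with biglycan, fell from 161 ± 11.8 CPM in WT to 87.9 ± 9.81 in KO, a log2 change of -0.87 ± 0.17 (SE; edgeR adjusted p = 0.00117). P2rx7 and Wisp1 were the other genes called lower, at low counts (edgeR adjusted p = 0.0455 and 0.0459). P2rx7 had 22, 66 and 16 counts in WT libraries and 11, 3 and 5 in KO libraries. For Wisp1 these were 35, 82 and 22 in WT and 13, 9 and 14 in KO. Bmp2 rose by 0.96 ± 0.21 and Tgfb2 by 0.63 ± 0.18 (SE; adjusted p = 0.00489 and 0.0411). The Bmp2 call was lost without KO library 1 (adjusted p = 0.101), and the Tgfb2 call with DESeq2, with limma-voom and in each fit that left out a library other than KO library 2 (adjusted p of at most 0.411). Without KO library 1, which held 610 counts of Tgfb2 beside 325 and 363 in the other KO libraries, its log2 fold change was 0.32. Tlr4, a receptor for free biglycan, had means of 134 ± 9.55 CPM in WT and 149 ± 10.2 in KO and did not pass (edgeR adjusted p = 0.719). Tlr2, another receptor for free biglycan, had 34, 43 and 16 counts in WT libraries and 76, 46 and 49 in KO libraries. Its groups did not overlap, and with a log2 fold change of 1.07 ± 0.37 (SE; edgeR adjusted p = 0.114) it did not pass. Tlr2, Tlr4, P2rx7 and Wisp1 were named after their values were seen.

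Proteases and enhancers that process the family or its collagen partners had 1 of 12 tested genes higher and 1 lower, with a median of -0.029. The shares over all tested genes were 1.82% higher and 1.77% lower. Before adjustment 3 of this list were higher and 1 was lower at p under 0.05, beside 7.62% higher and 7.83% lower over all tested genes. DESeq2 called 2 higher and 1 lower, and limma-voom 1 in each direction. Pcolce2, an enhancer of procollagen C-proteinase, rose from a mean of 1154 ± 42.0 CPM in WT to 1697 ± 192 in KO (SD, n = 3), or by 0.56 ± 0.10 on the log2 scale (SE; edgeR adjusted p = 0.00103). Mmp3, stromelysin-1, fell by 0.40 ± 0.11 (SE; adjusted p = 0.0426), a call lost in 5 of the 6 fits without 1 library (adjusted p up to 0.233). Bmp1, the proteinase that trims probiglycan, did not pass (log2 fold change 0.31 ± 0.12; adjusted p = 0.191), nor did Adamts1 (0.30 ± 0.11; adjusted p = 0.134).

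Other proteoglycans had 0 of 16 tested genes called in either direction by edgeR, DESeq2 or limma-voom. Before adjustment 6 were lower and 1 was higher at p under 0.05, beside 7.83% lower and 7.62% higher over all tested genes, and the median log2 fold change was -0.34. Prg4, which encodes lubricin, came nearest, with means of 43.0 ± 9.41 CPM in WT and 21.5 ± 3.03 in KO (SD, n = 3) and an edgeR adjusted p of 0.0503. Agrn, with a log2 fold change of 0.78 (edgeR adjusted p = 0.109), did not pass. Nor did Col18a1, at -0.51 (edgeR adjusted p = 0.114), and the glypican gene Gpc3, at -0.50 (edgeR adjusted p = 0.146).

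**Figure D4:**
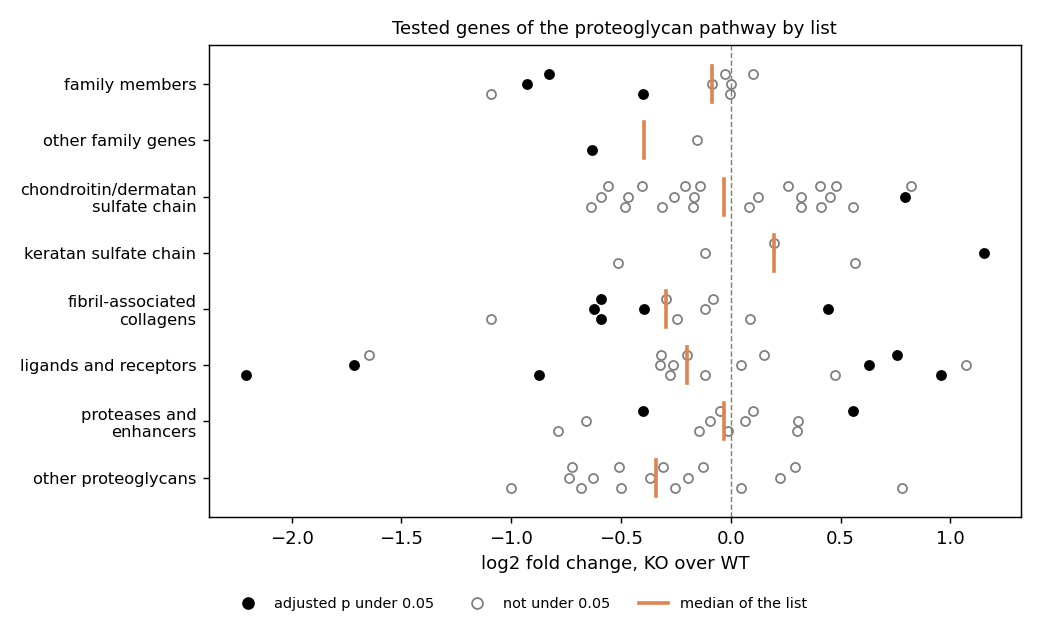
Log2 fold change of KO over WT (horizontal axis) for every tested gene of the 9-gene family and of 7 related lists, with filled circles for genes with an adjusted p under 0.05, open circles for the others and an orange line at the median of each list. The filled circles of the family lie left of 0, those of the sugar chain lists lie right of 0, and ligands and receptors have filled circles on both sides.

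Markers of other cells were read beside these results. Pericyte and smooth muscle markers summed to 149 to 182 CPM over the WT libraries and to 56.5 to 124 CPM over the KO libraries, lowest in KO library 1, and 0 of the 8 were at 0 in every library. Most of that sum came from Abcc9 and Notch3, and Notch3 fell (log2 fold change -1.56 ± 0.32; edgeR adjusted p = 0.00243), while Rgs5, Acta2, Myh11, Cspg4 and Des had at most 12 counts in any library. Markers of tendon and cartilage summed to 66.9 to 91.3 CPM in WT and 57.3 to 90.8 CPM in KO, with Col2a1 at 0 throughout. Most of the tendon and cartilage sum came from Sox9, with means of 70.2 CPM in WT and 65.7 in KO. Scx, Mkx, Tnmd and Comp had at most 10 counts in any library. Thbs4, too low to be tested, had 11, 7 and 18 counts in WT libraries and 1, 2 and 0 in KO libraries. Stromal genes (Pdgfra, the one of them that the sort used, with Pdgfrb, Cd34, Ly6a, Thy1 and Itgb1) summed to 7126 to 7468 CPM in WT and 8154 to 9569 CPM in KO. Of these 6 genes Cd34 and Ly6a rose, while Pdgfra and Pdgfrb fell. Adipocyte markers summed to 69.0 to 77.9 CPM in WT and 46.7 to 108 CPM in KO, with 4 of 6 at 0 throughout. Plin4 alone gave almost all of the adipocyte sum, with means of 74.5 CPM in WT and 82.9 in KO. Immune, endothelial, mesothelial and bone markers each summed to at most 12.7 CPM in any library. Erythroid markers reached 151 CPM in KO library 1, which also had the lowest Fmod, and 0 to 39.1 CPM elsewhere. Muscle markers ran from 20.3 to 96.3 CPM in WT and from 76.0 to 166 CPM in KO. Schwann cell markers had means of 39.8 and 27.7 CPM, most of it from S100b. The part of any of these in the differences of the proteoglycan genes was not tested.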

How the data were processed

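RNA-seq counts of 6 libraries, 3 WT and 3 KO, were analysed. The authors' deposited table gives unnormalized read counts for each gene symbol. Per the labels' protocols, RNA was selected by poly(A). The submitters' processing notes name HTSeq 0.9.1, HISAT2 2.2.1 and DESeq2 1.36.0, and several builds without roles. For the annotation and the strand setting the sources used here name nothing. A table of methylated regions names neither a build nor genes and was not used here.

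The filterByExpr filter (minimum count 10, minimum total 15) left 9943 genes. They were tested with edgeR 4.0.16 (R 4.3.3), TMM factors and the quasi-likelihood test, with Benjamini-Hochberg adjustment at 0.05. Standard errors follow from the F statistic, and 95% intervals from these. Pair ratios used a prior of 0.5 counts. Alternatives were DESeq2 1.42.0, limma-voom (limma 3.58.1), other scalings and filters, a replicate block and leaving out each library. The members and lists were chosen with earlier results of these data known. Named are all members, up to 4 tested genes per list by adjusted p and the 5 genes closest to Bgn and to Dcn. Tlr2, Tlr4, P2rx7, Wisp1, Col1a2, Col3a1, Gapdh, Ptprc, Cenpp and single marker genes were named after their values were seen. On simulated data for this comparison (9943 genes), the fit called 56 of 100 genes changed 2-fold and 86 of 100 changed 4-fold, with 8 false among 150 calls. A chi-square per degree of freedom of 4.05 to 7.13 between replicates showed no duplicate libraries. At 3 counts, a gene at 0 could reach 1.27 to 1.65 CPM, for counting error only.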

Additional observations from a re-analysis of the deposited data

How the results depend on the processing

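The number of members lower in KO was 3 to 4 under the 9 other settings and 2 to 4 with 1 library left out, and 0 were higher in each. Bgn and Podn passed in all 15 alternatives. Fmod passed with every gene with a count kept (-1.09) and with a mean count of at least 50 (-1.11). It also passed with limma-voom (-1.38) and with the replicate block (-1.27). With a library left out, Fmod passed only without KO library 2. It did not pass with DESeq2 (adjusted p = 0.103). By edgeR it did not pass with RLE factors (adjusted p = 0.0592), upper quartile factors (0.0533) or no factor (0.0513). Nor did it pass with scaling from genes that are not members (edgeR adjusted p = 0.0577). The adjusted p of Fmod ranged from 0.00107 to 0.284 over the alternatives. The cause was not tested.

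Genes called over all genes numbered 158 to 370 with 1 library left out (82 to 182 higher, 76 to 188 lower), against 357, and 501 with the replicate block. Same-numbered libraries did not deviate together over all tested genes (correlations 0.020, 0.017 and -0.00024). These correlations cannot show whether the numbers pair the libraries in a part of the genes. The block added Fmod and took other proteoglycans called lower from 0 to 3. For the pair ratios a test within numbers cannot give a p under 0.25, so it shows nothing about them.

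Other proteoglycans called lower were 1 with upper quartile factors, no factor or a mean count of at least 50, 2 with every gene with a count and 0 to 1 with a library left out. Ligands and receptors called lower were 1 with a mean count of at least 50 or limma-voom and 1 to 3 with a library left out (higher 1 to 3). Collagens higher were 0 with DESeq2 and 0 to 1 with a library left out. Proteases higher were 2 with DESeq2, and lower 0 to 1 with a library left out. Other family genes lower were 0 to 1.

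Signs near 0 turned for Dcn (0.00028 with RLE factors, 0.0051 with every gene with a count, 0.00089 with DESeq2; -0.029 to 0.032 with a library left out) and Ogn (-0.010 with upper quartile factors, -0.018 with no factor, -0.012 with a mean count of at least 50; -0.096 to 0.12). They also turned for Serp1 (-0.00038, -0.0084 and -0.0022 under the same settings as Ogn; -0.030 to 0.056), Pmp22 (0.0020 with every gene with a count; -0.064 to 0.031) and Slc25a4 (-0.0069 with no factor, -0.00069 with a mean count of at least 50; -0.034 to 0.066). With a library left out they turned for Omd (-0.40 to 0.11), Aspn (-0.13 to 0.10), Tsku (-0.78 to 0.23) and Vwa5a (-0.041 to 0.029). Omd, with 49 to 101 counts per library, had a 95% interval from -0.69 to 0.52.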
